A study of Mus musculus with 21 samples.

Results

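Metallothioneins and zinc transporters were followed through an RNA sequencing study of inflammation in mouse liver and in the cell line RAW264.7, which is macrophage-like and of mouse origin. The 6 genes were taken by symbol, as Mt1, Mt2, Mtf1, Slc30a1, Slc39a10 and Slc39a14. All 6 were among the 35550 genes listed for the cell line, and 5 were among the 5298 genes listed for liver, where Mtf1 was not analysed here. Values are TPM, the share of a library that the transcripts of a gene make up, which is a measure of transcript abundance per length and per library that allows levels of different genes to be set side by side.

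At 24 h, wild type (WT) cells had received 1 µg/mL LPS together with 0.5 mM CTM, 1 µg/mL LPS alone, or PBS. At 12 h, Vim-KO cells had received 1 µg/mL LPS or PBS, and so had WT cells. Each of these 7 groups held 2 libraries. LPS, lipopolysaccharide of the bacterial outer membrane, is a standard activator of macrophages. CTM is named as the labels name it, and the labels do not state whether the Vim-KO cells are a single clone. Liver came from C57BL/6J mice injected intraperitoneally, with 1 library per group. TG2-KO mice had received 30 mg/kg LPS or PBS, and WT mice 30 mg/kg LPS with 100 mg/kg CTM, 30 mg/kg LPS alone, or PBS. A further pair of WT groups had received LPS, at a dose that the labels do not give, after depletion of liver macrophages or without it. Ages and the number of mice per library are not given in the sources used here.

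Metallothioneins are small cysteine-rich proteins that bind zinc and copper and buffer them in the cell. Mtf1 encodes a zinc-sensing transcription factor that drives the metallothionein genes and the zinc exporter gene Slc30a1 through metal response elements in their promoters. Exporters of the ZnT family (Slc30) carry zinc out of the cytosol, and importers of the ZIP family (Slc39) carry it in. Slc39a10 encodes an importer of the cell surface, and Slc39a14 an importer of zinc, iron and manganese. In mouse liver, metallothioneins and Slc39a14 are known to be induced in the acute phase of inflammation.

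Mt2 lies on chromosome 8 from 94172664 to 94173568 (GRCm38, plus strand), and Mt1 lies 5513 bp downstream, from 94179082 to 94180327 on the same strand. Mtf1 lies on chromosome 4 from 124802104 to 124849800 (plus strand). Slc30a1 lies on chromosome 1 from 191906767 to 191913247 (plus strand), and Slc39a10 on the same chromosome from 46807544 to 46892852 (minus strand). Slc39a14 lies on chromosome 14 from 70303469 to 70351425 (minus strand). The annotated transcripts of Mt1 and Mt2 share none of their 31-base words (0 shared, of 1273 distinct words in Mt1 and 573 in Mt2).

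Promoters are shown for the 3 searched genes that hold the core of the metal response element, because this element is what the group is known for. The core was searched as TGCACNC or TGCGCNC on both strands, in the RefSeq window (GRCm38.p6) of 250 bases before to 50 bases after the start of transcription. Capitals mark the cores. The Mt1 window is chr8:94178839-94179138, that of Mt2 chr8:94172368-94172667 and that of Slc30a1 chr1:191906531-191906830, all on the plus strand.
Mt1: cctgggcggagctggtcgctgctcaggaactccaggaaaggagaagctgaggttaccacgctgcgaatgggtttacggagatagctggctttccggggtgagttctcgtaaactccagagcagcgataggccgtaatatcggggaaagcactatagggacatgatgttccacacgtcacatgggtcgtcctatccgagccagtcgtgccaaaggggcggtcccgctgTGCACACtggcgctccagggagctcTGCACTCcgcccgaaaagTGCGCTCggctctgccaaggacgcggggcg
Mt2: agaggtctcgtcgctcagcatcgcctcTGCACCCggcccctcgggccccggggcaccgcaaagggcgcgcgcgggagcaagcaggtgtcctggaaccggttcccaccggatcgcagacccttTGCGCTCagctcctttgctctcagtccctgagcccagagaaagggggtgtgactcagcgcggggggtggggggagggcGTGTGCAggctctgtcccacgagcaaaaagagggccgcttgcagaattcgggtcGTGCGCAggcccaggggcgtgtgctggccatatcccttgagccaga
Slc30a1: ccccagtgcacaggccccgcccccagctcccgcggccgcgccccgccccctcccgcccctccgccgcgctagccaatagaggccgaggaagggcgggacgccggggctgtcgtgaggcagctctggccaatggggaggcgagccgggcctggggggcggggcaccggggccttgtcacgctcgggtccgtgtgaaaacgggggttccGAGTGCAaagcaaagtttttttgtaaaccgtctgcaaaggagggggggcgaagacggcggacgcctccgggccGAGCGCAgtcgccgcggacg

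Mt2 held 4 cores, at -223, -128, -50 and 4 from the RefSeq start, of which the last 2 read on the minus strand. Mt1 held 3 cores on the plus strand, at -23, 2 and 20, and Slc30a1 held 2 on the minus strand, at -43 and 30. No core stood in the window of Mtf1 or in either window of Slc39a10. Slc39a14 had no RefSeq window here and was not searched. Of all 32851 windows, 25.7% held at least 1 core, 1.97% at least 3 and 0.517% at least 4. The share with at least 2, the number in Slc30a1, was not counted and can lie anywhere from 1.97% to 25.7%. The annotation places the starts of Mt1, Mt2 and Slc30a1 elsewhere than RefSeq does, so these positions hold for the RefSeq starts alone. A match is a run of letters and not a measured binding site.

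Vim, the gene targeted in the Vim-KO cells, had 30.8 and 33.0 TPM in Vim-KO cells with LPS, against 16.99 and 18.7 TPM in Vim-KO cells with PBS. WT cells had 1375 and 1461 TPM after LPS, against 1930.1 and 1877 TPM after PBS. Tgm2, which encodes transglutaminase 2 (TG2), had 15.5 TPM (LPS) and 0.74 TPM (PBS) in TG2-KO liver, against 351 to 429 TPM in the 4 WT livers with LPS and 35.7 TPM in the WT liver with PBS. In the cell line, 6 macrophage markers summed to between 8841 and 17330.0 TPM per library. Summed hepatocyte, neutrophil, endothelial and lymphocyte markers each stayed at or under 2.77 TPM. Within the groups, log2 values of the 2 libraries correlated across genes at 0.986 to 0.99. The depth of the libraries is unknown, since TPM do not keep it, and nothing in the labels tells whether paired libraries were grown as separate cultures. The p-values therefore cover the spread between these libraries alone, which may be technical.

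LPS moved most genes of the cell line. Changes are differences of log2(TPM + 1) with their standard errors, which understate the change of low genes, and a gene was called at an adjusted p of at most 0.05 in limma over all genes that averaged 1 TPM or more. As listed, the median LPS change over all genes tested was -0.23 in Vim-KO and -0.35 in WT cells at 12 h and -0.23 in WT cells at 24 h. Scaling the libraries to each other by the median of ratios brought these medians to 0.0054, 0.0064 and 0.0063, and that of the interaction at 12 h to -0.03, against 0.09 as listed. Below, the scaled value stands beside a called change where this shift ends the call or turns its sign. For most changes that were not called it is not given, and the sign of a small one can turn with scaling. In bulk RNA, fewer cells that express a gene and less of its RNA per cell cannot be told apart.

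The question at 12 h was how macrophage-like cells respond to LPS with and without vimentin, the intermediate filament protein that the study's title names. In WT cells LPS brought both metallothioneins up steeply, and Mt2 became one of the most abundant transcripts. In Vim-KO cells Mt1 did not pass the test and Mt2 rose much less. This difference between the genotypes passed the test for both genes.

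Mt2 had 238.1 and 233.2 TPM in Vim-KO cells with LPS, against 82.7 and 100.8 TPM in Vim-KO cells with PBS. In WT cells it had 3146 and 3719.7 TPM after LPS, against 339.6 and 314.6 TPM after PBS. At 12 h no 2 groups overlapped, and both Vim-KO groups lay under the WT cells with PBS. In the separate 24 h experiment, Mt2 had 85.7 and 107.9 TPM in WT cells with PBS, close to the Vim-KO cells with PBS here. Levels were not tested between the experiments. With LPS at 12 h, Mt2 ranked number 27 and number 20 among all transcripts in the 2 WT libraries. In the Vim-KO libraries it ranked number 662 and number 652. The LPS change of Mt2 was 1.36 ± 0.11 in Vim-KO cells (2.57-fold by means; limma, adjusted p = 1.57e-05). In WT cells it was 3.38 ± 0.11 (10.5-fold; limma, adjusted p = 1.34e-07), number 136 by size among all genes tested.

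Mt1 had 636.3 and 659.9 TPM in Vim-KO cells with LPS, against 631.6 and 691.0 TPM in Vim-KO cells with PBS. WT cells had 1613 and 1832 TPM after LPS, against 624.1 and 513.7 TPM after PBS. The Vim-KO groups overlapped each other, and the WT libraries with LPS stood apart from all 6 others. The LPS change of Mt1 was -0.03 ± 0.104 in Vim-KO cells, with a 95% interval of -0.27 to 0.21 (limma, adjusted p = 0.828). That interval holds for values as listed. In this comparison, changes as listed minus scaled ones had a median of -0.25 over genes, so the sign of this small change may turn with scaling. In WT cells it was 1.60 ± 0.104 (3.03-fold; limma, adjusted p = 4.4e-06).

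**Figure D1:**
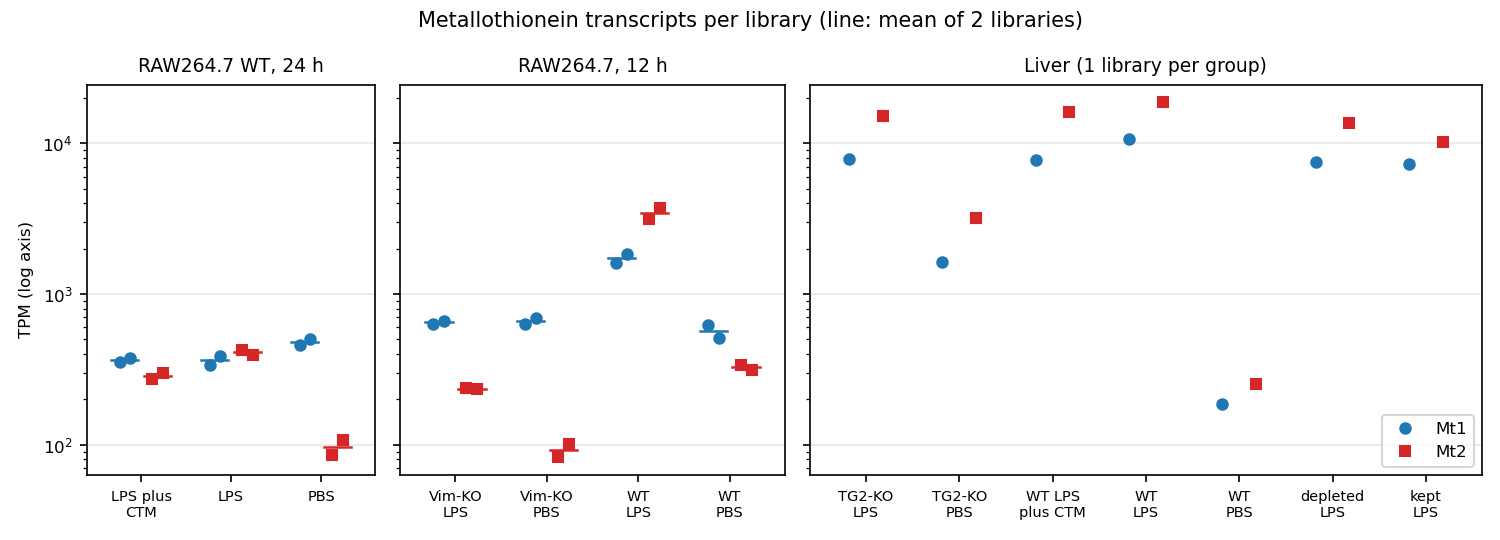
Mt1 (circles) and Mt2 (squares) in TPM on a log axis, 1 point per library, with a line at the mean of 2 libraries, for the cell line at 24 h, the cell line at 12 h and liver. At 12 h the WT libraries with LPS stand highest for both genes, with Mt2 at 3146 and 3719.7 TPM, and in liver the WT library with PBS lies lowest, at 187 TPM for Mt1 and 254 TPM for Mt2.

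The LPS change in Vim-KO cells minus that in WT cells was -2.03 ± 0.155 for Mt2 (limma interaction, adjusted p = 0.00013) and -1.63 ± 0.147 for Mt1 (limma interaction, adjusted p = 0.000255). With LPS, Mt2 was 14.6-fold lower in Vim-KO than in WT cells by means, a log2 change of -3.85 ± 0.11 (limma, adjusted p = 3.28e-07), number 40 by size among all genes tested. Mt1 with LPS was 2.66-fold lower in Vim-KO than in WT cells, with a log2 change of -1.41 ± 0.104 (limma, adjusted p = 3.27e-05). With PBS the genes parted, since Mt2 was already 3.56-fold lower in Vim-KO than in WT cells (-1.83 ± 0.11; limma, adjusted p = 9.97e-06) while Mt1 did not pass the test (0.22 ± 0.104, 95% interval -0.02 to 0.46; limma, adjusted p = 0.123). Without the first WT library with PBS, the adjusted p of that Mt1 difference was 0.0404. The 6 macrophage markers moved with genotype too. They summed to 11220.0 to 11940.0 TPM in Vim-KO cells with LPS and 8841 to 8868 TPM with PBS, and to 13610.0 to 14390.0 TPM in WT cells with LPS and 17240.0 to 17330.0 TPM with PBS. The interaction called 3 of the 6 higher (Adgre1, Csf1r and Lyz2) and 0 lower, where 20.6% of all genes were called, and after scaling also Cd14 lower (adjusted p = 0.029). Vim-KO against WT called 1 higher and 4 lower with LPS, where 44.7% of all genes were called. With PBS it called 0 higher and 4 lower, where 43.0% were called, and the lower call of Cd68 ended after scaling (adjusted p = 0.0762). Their part in the metallothionein changes was not tested.

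Mtf1, the zinc sensor, rose with LPS in both genotypes at 12 h. It had 39.2 and 33.4 TPM in Vim-KO cells with LPS, against 19.1 and 16.7 TPM in Vim-KO cells with PBS. WT cells had 31.7 and 31.2 TPM after LPS, against 18.6 and 21.7 TPM after PBS, so that LPS libraries lay above PBS libraries throughout. The change was 0.98 ± 0.114 in Vim-KO cells (limma, adjusted p = 0.000127) and 0.62 ± 0.114 in WT cells (limma, adjusted p = 0.00148). The changes of the genotypes differed by 0.36, which did not pass the test (limma interaction, adjusted p = 0.161). Mtf1 did not pass the test between Vim-KO and WT cells, with LPS (0.20; limma, adjusted p = 0.2) or with PBS (-0.16; limma, adjusted p = 0.296).

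The importer gene Slc39a10 fell with LPS in both genotypes. It had 9.39 and 9.25 TPM in Vim-KO cells with LPS, against 29.6 and 31.4 TPM in Vim-KO cells with PBS. WT cells had 9.65 and 9.38 TPM with LPS, against 21.8 and 18.9 TPM with PBS. All 4 LPS libraries thus lay between 9.25 and 9.65 TPM, while the PBS libraries lay higher and apart by genotype. The LPS change was -1.61 ± 0.0955 in Vim-KO cells (limma, adjusted p = 2.81e-06) and -1.02 ± 0.0955 in WT cells (limma, adjusted p = 3.43e-05). The difference between them was -0.59 ± 0.135 (limma interaction, adjusted p = 0.02), and it lost the call when any of 4 libraries was left out. These were the second WT library with PBS (adjusted p = 0.0786), the first WT library with LPS (0.0632), and the first (0.0508) or second (0.0806) Vim-KO library with PBS. With PBS, Slc39a10 was 1.5-fold higher in Vim-KO than in WT cells (0.56 ± 0.0955; limma, adjusted p = 0.00224), and with LPS the difference was -0.03, with a 95% interval of -0.25 to 0.19 (limma, adjusted p = 0.845).

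The exporter gene Slc30a1 had 7.10 and 7.18 TPM in Vim-KO cells with LPS, against 11.4 and 13.7 TPM in Vim-KO cells with PBS. WT cells had 6.57 and 7.07 TPM after LPS, against 8.36 and 8.84 TPM after PBS. The LPS libraries lay below the PBS libraries in each genotype. Slc30a1 fell with LPS in Vim-KO cells, by 0.73 ± 0.114 on the log2 scale (limma, adjusted p = 0.000651). In WT cells the change was -0.30 ± 0.114 (limma, adjusted p = 0.045), which scaling turned to 0.04 (adjusted p = 0.752) and which lost the call when any WT library was left out (adjusted p = 0.0762 to 0.173). The interaction was -0.43 and did not pass the test (limma, adjusted p = 0.0974). With PBS, Slc30a1 was 1.46-fold higher in Vim-KO than in WT cells (0.49 ± 0.114; limma, adjusted p = 0.0096), a call lost without the first WT library (adjusted p = 0.0637) or the second Vim-KO library (adjusted p = 0.0712). With LPS the difference between the genotypes was 0.06 (limma, adjusted p = 0.703).

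Slc39a14, the importer of zinc, iron and manganese, fell with LPS in Vim-KO cells (a call that scaling ended) and rose with LPS in WT cells. It had 53.3 and 42.8 TPM in Vim-KO cells with LPS, against 63.3 and 72.3 TPM in Vim-KO cells with PBS. WT cells had 59.7 and 69.3 TPM after LPS, against 49.1 and 49.6 TPM after PBS. The groups did not overlap within either genotype. The LPS change was -0.49 ± 0.121 in Vim-KO cells (limma, adjusted p = 0.00737; -0.24 and adjusted p = 0.101 after scaling; 0.0563 without the second Vim-KO library with PBS). In WT cells it was 0.38 ± 0.121 (limma, adjusted p = 0.023), a call that ended with no filter on low genes (adjusted p = 0.0586) and without either PBS library (0.0863 and 0.0771) or the second LPS library (0.138), while scaling raised it to 0.76 (adjusted p = 0.000602). The difference between the genotypes was -0.87 ± 0.171 (limma interaction, adjusted p = 0.0112).

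Between the genotypes, Slc39a14 was 1.37-fold higher in Vim-KO than in WT cells with PBS (0.45 ± 0.121; limma, adjusted p = 0.0191). With LPS it was 1.34-fold lower in Vim-KO than in WT cells (-0.42 ± 0.121; limma, adjusted p = 0.0237). Both calls ended with no filter on low genes (adjusted p = 0.0524 with PBS and 0.0634 with LPS). The first also ended without either WT library with PBS (0.0852 and 0.0787) or the second Vim-KO library with PBS (0.123). The second ended in a fit of its 2 groups alone (0.0572), without the second WT library (0.136) or the second Vim-KO library with LPS (0.104).

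**Figure D2:**
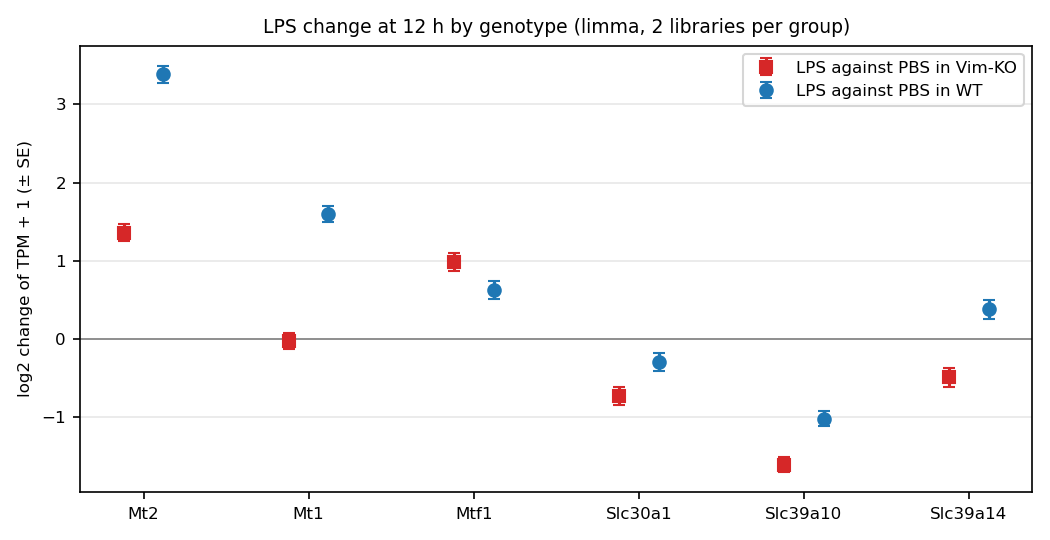
LPS change of the 6 genes at 12 h, as the log2 change of TPM + 1 with its standard error, in Vim-KO cells (squares) and WT cells (circles). Mt2 and Mt1 lie far apart between the genotypes (1.36 and 3.38 for Mt2, -0.03 and 1.60 for Mt1), and Slc39a14 lies on opposite sides of 0.

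Counted over the 6 genes, LPS in Vim-KO cells called 2 higher and 3 lower, where 66.4% of all 11115 genes tested were called (20.5% higher and 45.8% lower). In WT cells it called 4 higher and 2 lower, where 70.9% of all genes were called (17.8% higher and 53.1% lower). The median change of the 6 genes was -0.26 in Vim-KO and 0.50 in WT cells, and that of all genes tested was -0.23 in Vim-KO and -0.35 in WT cells. The interaction called 0 higher and 4 lower, against 20.6% of all genes (13.7% higher and 6.96% lower). With LPS, Vim-KO against WT called 0 higher and 3 lower, against 44.7% of all genes (24.1% higher and 20.6% lower). With PBS it called 3 higher and 1 lower, against 43.0% (17.7% higher and 25.4% lower). Of all genes called, the share that rose was 31% in Vim-KO cells (50.4% after scaling) and 25.2% in WT cells (51.3% after scaling), and for the interaction 66.2% (46.2% after scaling). The LPS changes of the genotypes do not share libraries with each other, but the interaction and the 2 comparisons between genotypes use the same libraries as they do.

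At 24 h, LPS-treated WT cells were compared with PBS, and a further group received LPS with CTM. With LPS, Mt2 rose, Slc30a1 and Slc39a10 fell, and Mtf1 did not pass the test. Mt1 fell slightly, a call that scaling ended, and Slc39a14 passed the test only after scaling. With CTM added, Mt2 was lower and Slc30a1 higher than with LPS alone.

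Mt2 had 274.4 and 297.5 TPM with LPS plus CTM, 423.9 and 396.1 TPM with LPS alone, and 85.7 and 107.9 TPM with PBS. The 3 groups did not overlap, and the cells with CTM lay between the others. LPS raised Mt2 by 2.08 ± 0.106 over PBS (4.24-fold; limma, adjusted p = 4.7e-06). LPS plus CTM left it 1.56 ± 0.106 above PBS (2.95-fold; limma, adjusted p = 3.54e-05). Against LPS alone, Mt2 with CTM was lower by a log2 change of -0.52 ± 0.106 (0.697-fold; limma, adjusted p = 0.0128), a call that ended with no filter on low genes (adjusted p = 0.0534), without the LPS library numbered 2 (0.0677) and without the CTM library numbered 2 (0.0733).

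Mt1 had 356.3 and 377.0 TPM with LPS plus CTM, 340.5 and 390.3 TPM with LPS alone, and 458.9 and 500.9 TPM with PBS. The LPS groups overlapped each other and lay below both PBS libraries. Mt1 was lower than with PBS by a log2 change of -0.39 ± 0.0772 both with LPS plus CTM (limma, adjusted p = 0.00508) and with LPS (limma, adjusted p = 0.00309). After scaling these changes were -0.21 (adjusted p = 0.102) and -0.14 (adjusted p = 0.242), so that neither call held. LPS plus CTM against LPS gave 0.01 for Mt1, with a 95% interval of -0.17 to 0.19 (limma, adjusted p = 0.953).

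Slc30a1 had 7.76 and 6.88 TPM with LPS plus CTM, 4.23 and 3.63 TPM with LPS alone, and 8.91 and 9.21 TPM with PBS. The cells with CTM again lay between the others, without overlap. LPS lowered Slc30a1 by a log2 change of -1.03 ± 0.139 against PBS (0.434-fold; limma, adjusted p = 0.000505). With CTM it was 1.86-fold higher than with LPS alone (0.76 ± 0.139; limma, adjusted p = 0.00897), a call that ended without the CTM library numbered 2 (adjusted p = 0.0563). LPS plus CTM against PBS gave -0.28 and did not pass the test (limma, adjusted p = 0.135).

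Slc39a10 had 12.8 and 15.1 TPM with LPS plus CTM, 11.1 and 10.1 TPM with LPS alone, and 22.0 and 20.2 TPM with PBS. All 4 libraries with LPS lay below both PBS libraries. The change against PBS was -0.57 ± 0.12 with LPS plus CTM (limma, adjusted p = 0.0065) and -0.93 ± 0.12 with LPS (0.501-fold; limma, adjusted p = 0.000392). Between LPS plus CTM and LPS it was 0.37 ± 0.12, with a 95% interval of 0.08 to 0.65, and did not pass the adjusted threshold (limma, adjusted p = 0.062).

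Slc39a14 had 33.6 and 28.8 TPM with LPS plus CTM, 35.8 and 33.8 TPM with LPS alone, and 33.7 and 30.3 TPM with PBS. Its change with LPS was 0.12 ± 0.103 (limma, adjusted p = 0.345), and 0.37 after scaling (adjusted p = 0.0128), which passed the threshold. For Mtf1 the libraries had 17.5 and 18.7 TPM with LPS plus CTM, 15.02 and 18.7 TPM with LPS alone, and 17.4 and 16.3 TPM with PBS. The change between LPS plus CTM and LPS was -0.16 (limma, adjusted p = 0.3) for Slc39a14. The Mtf1 groups with LPS and PBS overlapped, and its changes were 0.11 for LPS plus CTM against LPS (limma, adjusted p = 0.562) and -0.0039 for LPS against PBS (limma, adjusted p = 0.98).

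**Figure D3:**
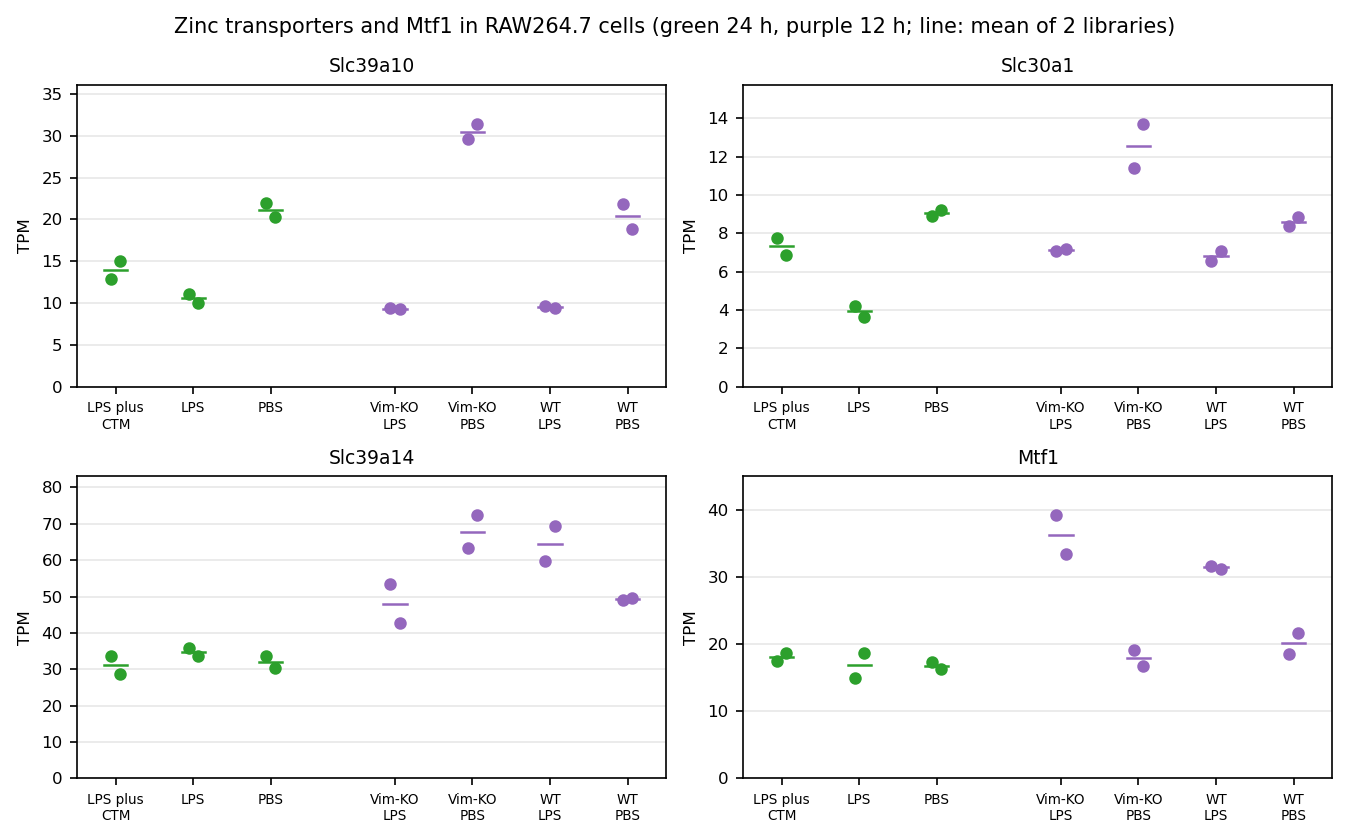
Slc39a10, Slc30a1, Slc39a14 and Mtf1 in TPM in the cell line, 1 point per library with a line at the mean of 2, at 24 h (green) and 12 h (purple). Slc39a10 lies between 9.25 and 15.1 TPM in the libraries with LPS and between 18.9 and 31.4 TPM in those with PBS, and Slc30a1 is highest in Vim-KO cells with PBS.

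Over the 6 genes at 24 h, LPS plus CTM against LPS called 1 higher and 1 lower, where 25.6% of all 11030 genes tested were called (16.1% higher and 9.45% lower). LPS against PBS called 1 higher and 3 lower, where 66.0% of all genes were called (20.9% higher and 45.1% lower). LPS plus CTM against PBS called 1 higher and 2 lower, against 52.9% of all genes (17.4% higher and 35.5% lower). The 3 comparisons share libraries. The share of called genes that rose was 63.1% for LPS plus CTM against LPS (45.3% after scaling), 31.6% for LPS against PBS (50.9% after scaling) and 32.9% for LPS plus CTM against PBS (53.3% after scaling). Tgm2 had 32.6 and 32.3 TPM with LPS plus CTM, 72.2 and 67.4 TPM with LPS alone, and 15.7 and 20.96 TPM with PBS.

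The balance between the metallothioneins shifted with LPS in each cell line experiment. The ratio of Mt2 to Mt1 within a library does not depend on how libraries are scaled to each other. At 24 h it was 0.77 and 0.789 with LPS plus CTM, 1.25 and 1.02 with LPS, and 0.187 and 0.215 with PBS. At 12 h it was 0.374 and 0.353 in Vim-KO cells with LPS, against 0.131 and 0.146 in Vim-KO cells with PBS. WT cells had 1.95 and 2.03 with LPS, against 0.544 and 0.612 with PBS. No groups overlapped. By means, LPS raised the ratio 2.63-fold in Vim-KO cells and 3.44-fold in WT cells at 12 h, and 5.62-fold in WT cells at 24 h. With LPS at 12 h, the ratio in Vim-KO cells was 0.183 times that in WT cells. An exact permutation test of 2 against 2 libraries cannot give a p below 0.333, so these ratios are a description. The 12 h and 24 h experiments were separate, and their levels were not tested against each other.

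**Figure D4:**
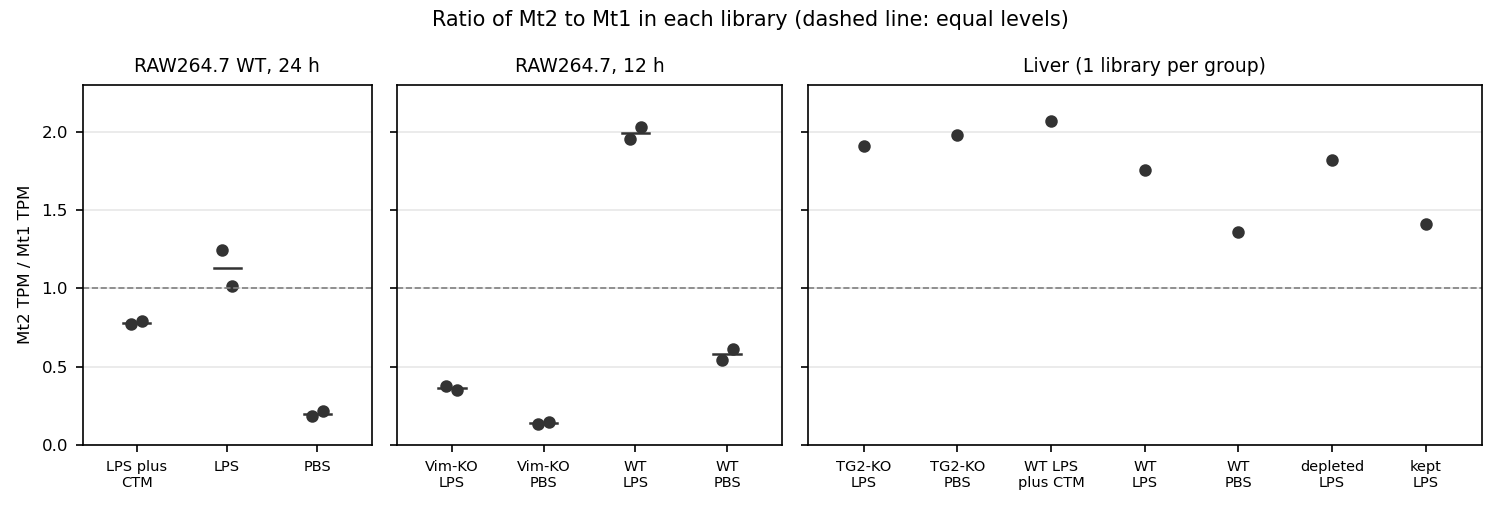
Ratio of Mt2 to Mt1 TPM in each library, with a line at the mean of 2 libraries and a dashed line where the genes are equal. At 12 h the WT libraries with LPS lie at 1.95 and 2.03, the Vim-KO libraries lie between 0.131 and 0.374, and the liver libraries between 1.36 and 2.07.

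The rest of the zinc transporter families was read in the same fits. The other metallothioneins were low or absent in the cell line, with Mt4 listed at 0 in every library and Mt3 too low to be tested. Of the ZnT list 6 of 10 genes and of the ZIP list 10 of 14 were tested. The interaction of LPS and Vim-KO called 0 of the 5 ZnT genes and 0 of the 8 ZIP genes tested outside the 6 members (20.6% of all genes were called). In Vim-KO cells LPS raised 2 of these ZnT genes (Slc30a7 and Slc30a9) and lowered 1 (Slc30a5), and raised 3 of these ZIP genes (Slc39a1, Slc39a4 and Slc39a7) and lowered 2 (Slc39a3 and Slc39a11), where 20.5% of all genes rose and 45.8% fell. After scaling, Slc30a4, Slc30a6, Slc39a6, Slc39a9 and Slc39a13 were called higher too and the falls of Slc39a3 (adjusted p = 0.0588) and Slc39a11 (0.462) ended, which left 4 ZnT genes higher and 1 lower, and 6 ZIP genes higher and 0 lower.

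In WT cells at 12 h LPS raised 2 ZnT genes (Slc30a6 and Slc30a7) and lowered 1 (Slc30a5), and raised 4 ZIP genes (Slc39a1, Slc39a4, Slc39a7 and Slc39a13) and lowered 1 (Slc39a11), where 17.8% of all genes rose and 53.1% fell. After scaling, Slc30a4, Slc30a9, Slc39a6 and Slc39a9 were called higher too and the fall of Slc39a11 ended (adjusted p = 0.405), so that here as well 4 ZnT genes were higher and 1 lower, and 6 ZIP genes higher and 0 lower. In WT cells at 24 h LPS raised 1 ZnT gene (Slc30a4) and lowered 1 (Slc30a5), and raised 1 ZIP gene (Slc39a4) and lowered 4 (Slc39a1, Slc39a3, Slc39a6 and Slc39a9), where 20.9% of all genes rose and 45.1% fell. After scaling, Slc30a9 was called higher too, and the falls of Slc39a3 (adjusted p = 0.127) and Slc39a6 (0.556) ended.

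Among the transporters outside the 6 members, the importer gene Slc39a4 rose with LPS in each fit. At 12 h it averaged 4.7 ± 1.95 TPM in Vim-KO cells with LPS and 0.885 ± 0.1 TPM with PBS (SD, n = 2; log2 change 1.55 ± 0.23; limma, adjusted p = 0.000489), and 3.79 ± 0.489 TPM in WT cells with LPS and 1.27 ± 0.0597 TPM with PBS (1.07 ± 0.23; limma, adjusted p = 0.00341). At 24 h it averaged 7.99 ± 1.07 TPM with LPS and 1.18 ± 0.112 TPM with PBS (SD, n = 2; 2.04 ± 0.174; limma, adjusted p = 5.42e-05). Slc39a1 and Slc39a7, importer genes of the cell surface and of the early secretory pathway, rose at 12 h. For Slc39a1 the changes were 0.77 in Vim-KO cells (limma, adjusted p = 0.000378) and 0.72 in WT cells (limma, adjusted p = 0.000504). For Slc39a7 they were 0.69 in Vim-KO cells (limma, adjusted p = 0.000146) and 0.64 in WT cells (limma, adjusted p = 0.000196). At 24 h Slc39a1 fell (-0.62; limma, adjusted p = 0.00016).

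Slc30a5, which encodes a zinc transporter of the secretory pathway, fell with LPS in every fit. The change was -0.45 in Vim-KO cells at 12 h (limma, adjusted p = 0.000686), -0.67 in WT cells at 12 h (limma, adjusted p = 6.67e-05) and -1.28 in WT cells at 24 h (limma, adjusted p = 1.83e-05). With CTM added at 24 h, Slc30a5 averaged 36.1 ± 0.286 TPM, against 23.8 ± 2.23 TPM with LPS alone (SD, n = 2; 0.59 ± 0.087; limma, adjusted p = 0.00407).

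Genes reported elsewhere as MTF1 targets were read as a list of 5 outside the 6 members. Of the 4 tested at 12 h, LPS raised 0 and lowered 3 in Vim-KO cells, where 45.8% of all genes fell, and raised 1 and lowered 3 in WT cells, where 53.1% fell. After scaling, Ndrg1 was called higher in Vim-KO cells as well (0.45, adjusted p = 0.0409). Gclc, which encodes a subunit of the enzyme that begins glutathione synthesis, fell by 1.17 ± 0.0835 on the log2 scale in Vim-KO cells (limma, adjusted p = 7.61e-06) and by 1.37 ± 0.0835 in WT cells (limma, adjusted p = 3.11e-06). Selenoh, a selenoprotein gene, fell by 1.59 ± 0.0939 in Vim-KO cells (limma, adjusted p = 2.78e-06) and by 1.74 ± 0.0939 in WT cells (limma, adjusted p = 1.66e-06). The interaction called 1 of the 4, Ndrg1 (-0.83 ± 0.237; limma, adjusted p = 0.0438), where 20.6% of all genes were called.

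Of 8 copper handling genes tested, the interaction called 1 (20.6% of all genes were called), Cox17 (-0.51 ± 0.133; limma, adjusted p = 0.0309), which encodes a copper chaperone of mitochondria. Slc31a2, a copper transporter gene, rose with LPS by 2.67 ± 0.0787 in Vim-KO cells (limma, adjusted p = 7.86e-08) and by 2.56 ± 0.0787 in WT cells (limma, adjusted p = 1.11e-07). Of 7 glucocorticoid receptor targets, the interaction called 1 higher, Per1 (0.63; limma, adjusted p = 0.0303, and 0.0527 after scaling). It called 3 lower, with Sgk1 at -2.18 (limma, adjusted p = 0.00394), Dusp1 at -1.36 (limma, adjusted p = 0.000575) and Zfp36 at -0.86 (limma, adjusted p = 0.00905). Of all genes 13.7% were called higher and 6.96% lower, and after scaling Fkbp5 was called lower too (-0.46, adjusted p = 0.031). S100a8, which encodes a subunit of the zinc-binding protein calprotectin, averaged 13.0 ± 0.111 TPM in Vim-KO cells with LPS and 0.562 ± 0.407 TPM with PBS (SD, n = 2). WT cells averaged 899.8 ± 11.3 TPM with LPS and 1.19 ± 0.607 TPM with PBS. Its interaction was -5.52 ± 0.304 (limma, adjusted p = 3.26e-05). In the separate 24 h experiment, S100a8 had only 7.3 and 7.99 TPM in WT cells with LPS, and 0.896 and 0.714 TPM with PBS. S100a9, the gene of the other subunit, was too low to be tested.

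Genes with the most similar pattern were sought by Pearson's r of log2(TPM + 1) over the 6 libraries at 24 h and the 8 libraries at 12 h, taking the lower of both, among 10796 genes tested in both experiments. Libraries of a group share their treatment, so these r are a description. For Mt2 the closest were Il1rn, the interleukin-1 receptor antagonist gene, with r of 0.991 at 24 h and 0.996 at 12 h, Tmem120a with 0.989 and 0.99, and Carmil1 with 0.992 and 0.988. For Mt1 they were Phf1 (0.905 and 0.928), Psmd13 (0.958 and 0.882) and Sec22b (0.875 and 0.909). For Slc39a10 they were Mrps26 (0.992 and 0.99), Bend3 (0.991 and 0.989) and Rrm2 (0.988 and 0.991). For Slc30a1 they were E2f6 (0.981 and 0.971), Itpa-ps1 (0.979 and 0.971) and Slc29a2 (0.964 and 0.961). Mtf1 came closest to the interferon-induced GTPase gene Igtp (0.928 and 0.893), then to Mob3c (0.915 and 0.882) and Gpatch11 (0.83 and 0.824). Slc39a14 had no close match, with Dusp14 at 0.723 and 0.758, Dera at 0.825 and 0.7, and Mospd1 at 0.684 and 0.71. Among the 6 genes, r between Mt1 and Mt2 was -0.888 at 24 h and 0.887 at 12 h, and between Slc30a1 and Slc39a10 it was 0.888 and 0.928.

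In liver each group is 1 library, so differences have no replicate check and no test. In the values listed for liver, every gene differs by 2-fold or more between the WT libraries with LPS and with PBS, so that pair is described and nothing is read from it. The same choice bears on each comparison that uses 1 of these 2 libraries. These are TG2-KO against WT with PBS or with LPS, and LPS plus CTM against LPS. It bears on LPS against PBS in TG2-KO liver too, since the listed genes all differ with LPS in WT liver. Shares of listed genes given for liver are not shares of all genes. Of the listed genes, the metallothioneins were among the most abundant in every library with LPS. In the WT liver with PBS, Mt2 ranked number 85 and Mt1 number 117 among the listed genes. A TG2-KO liver that had received only PBS already held high levels of both, at number 8 for Mt2 and number 16 for Mt1.

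Mt2 had 15057.88 TPM (LPS) and 3210.46 TPM (PBS) in TG2-KO liver. WT liver had 16123.92 TPM with LPS plus CTM, 18705.7 TPM with LPS and 254 TPM with PBS, and the depletion pair had 13704.34 TPM (depleted) and 10260.23 TPM (not depleted). Mt1 had 7901 TPM (LPS) and 1624 TPM (PBS) in TG2-KO liver. WT liver had 7794 TPM with LPS plus CTM, 10668 TPM with LPS and 187 TPM with PBS, and the depletion pair had 7548 TPM (depleted) and 7279.7 TPM (not depleted). All 5 libraries with LPS lay above both libraries with PBS for each gene, and the TG2-KO library with PBS lay between them and the WT library with PBS. In the WT liver with LPS the 2 genes together made up 2.94% of the TPM of the library, and 0.0441% in the WT liver with PBS.

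The LPS difference in TG2-KO liver was 2.28 for Mt1 (4.87-fold) and 2.23 for Mt2 (4.69-fold). In WT liver it was 5.83 for Mt1 (57.1-fold) and 6.20 for Mt2 (73.6-fold). With PBS, TG2-KO liver exceeded WT liver by 3.11 for Mt1 (8.69-fold) and by 3.66 for Mt2 (12.6-fold). With LPS the TG2-KO and WT livers differed by -0.43 for Mt1 and -0.31 for Mt2. The ratio of Mt2 to Mt1 in liver ran between 1.36 and 2.07.

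RNA of TG2-KO liver was extracted on a date of its own, among 3 dates, so genotype and date cannot be told apart. Other values also differed between the TG2-KO and WT livers with PBS. The inflammation genes S100a8 and S100a9 had 10.9 and 12.2 TPM in TG2-KO liver, against 1.13 and 0.22 TPM in WT liver. The 2 of 6 neutrophil markers listed, Ngp (0.58 TPM) and Retnlg (3.67 TPM), summed to 4.25 TPM in TG2-KO liver and were both listed at 0 in WT liver. Of the 5 macrophage markers listed, 0 were higher and 1 lower (Adgre1) by a log2 difference of at least 1, where 7.70% of listed genes differed so. Among them, Cd14 had 2.57 TPM in TG2-KO and 2.45 TPM in WT liver. Of the 3 glucocorticoid receptor targets listed, Tsc22d3 had 12.6 TPM in TG2-KO liver and 46.2 TPM in WT liver, while Fkbp5 had 16.2 TPM in TG2-KO and 14.9 TPM in WT liver and Zfp36 86.2 TPM in TG2-KO and 74.3 TPM in WT liver. Their part in the metallothionein levels was not tested.

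**Figure D5:**
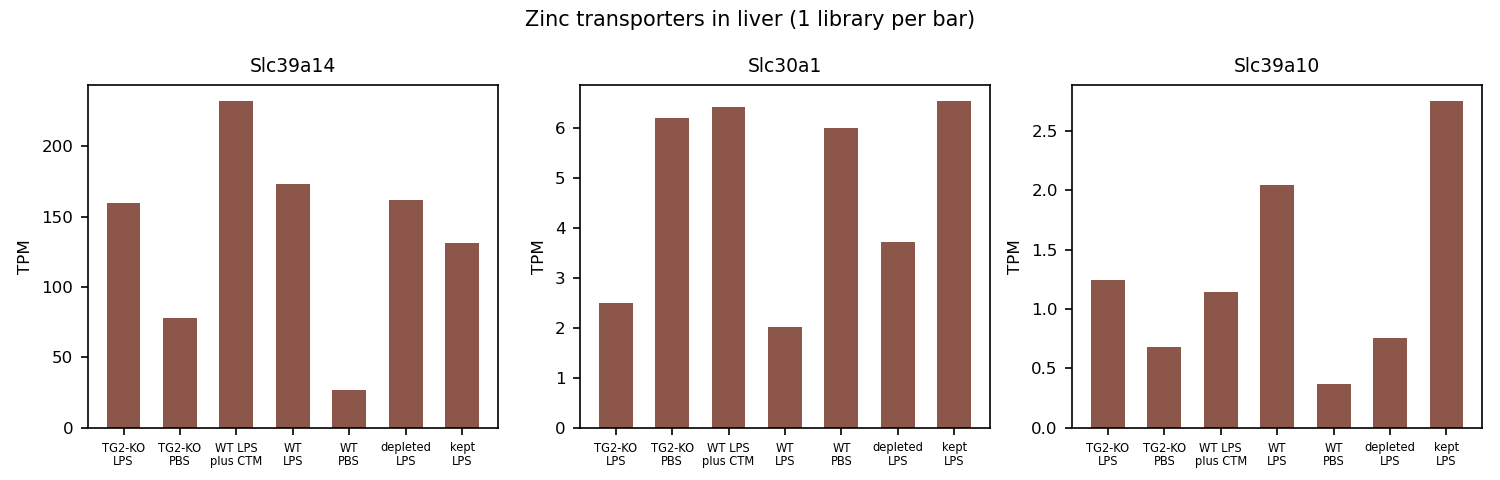
Slc39a14, Slc30a1 and Slc39a10 in liver in TPM, 1 library per bar, without error bars because no group has a replicate. Slc39a14 runs between 27.1 TPM in WT liver with PBS and 232 TPM in WT liver with LPS plus CTM, while Slc39a10 stays at or below 2.75 TPM.

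Slc39a14 had 160 TPM (LPS) and 78.1 TPM (PBS) in TG2-KO liver. WT liver had 232 TPM with LPS plus CTM, 173 TPM with LPS and 27.1 TPM with PBS, and the depletion pair had 162 TPM (depleted) and 132 TPM (not depleted). Every library with LPS lay above both libraries with PBS. The LPS difference was 1.02 in TG2-KO liver (2.05-fold) and 2.64 in WT liver (6.41-fold). After scaling over the listed genes it was 1.62 in TG2-KO liver and 3.99 in WT liver. That scaling takes most genes as unchanged, while every listed gene differs by 2-fold or more with LPS in WT liver. Scaled liver values therefore cannot decide the size of a change. With PBS, TG2-KO liver exceeded WT liver by 1.495 (2.89-fold).

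Slc30a1 had 2.5 TPM (LPS) and 6.19 TPM (PBS) in TG2-KO liver. WT liver had 6.41 TPM with LPS plus CTM, 2.01 TPM with LPS and 5.99 TPM with PBS, and the depletion pair had 3.72 TPM (depleted) and 6.54 TPM (not depleted). The TG2-KO and WT libraries with LPS alone were the lowest, and the library of the liver not depleted, also with LPS alone, was the highest. CTM with LPS exceeded LPS alone by 1.30 (3.19-fold). The LPS difference was -1.04 in TG2-KO liver and -1.22 in WT liver. After scaling over the listed genes it was -0.54 in TG2-KO liver and -0.13 in WT liver, both short of 2-fold. Because of the choice of listed genes, these scaled values cannot decide whether Slc30a1 fell. Slc39a10 was low throughout, at 1.24 TPM (LPS) and 0.68 TPM (PBS) in TG2-KO liver, and in WT liver at 1.14 TPM with LPS plus CTM, 2.04 TPM with LPS and 0.37 TPM with PBS. The depletion pair had 0.76 TPM (depleted) and 2.75 TPM (not depleted) for Slc39a10.

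Counting a log2 difference of at least 1 as past the fold, TG2-KO against WT liver with PBS held 3 of the 5 genes higher and 0 lower, where 7.70% of listed genes were past the fold (2.94% higher and 4.76% lower). With LPS, TG2-KO against WT held 0 of the 5 past the fold, against 6.30% of listed genes (4.27% higher and 2.04% lower). LPS against PBS in TG2-KO liver held 3 higher and 1 lower, against 31.9% of listed genes (14.8% higher and 17.1% lower). Neither that count nor that share is free of the choice of genes that differ with LPS in WT liver. The 1 lower was Slc30a1, which scaling left short of the fold, though scaling over the listed genes cannot decide it. LPS plus CTM against LPS held 1 higher, Slc30a1, against 1.59% of listed genes (0.698% higher and 0.887% lower). Depletion held 1 lower, Slc39a10 at -1.09, against 8.83% of listed genes (2.59% higher and 6.25% lower). In WT liver, LPS against PBS held 4 higher and 1 lower (again Slc30a1), against 66.9% of listed genes (20.6% higher and 46.3% lower), as the choice of listed genes fixes in part.

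Depletion was visible in Clec4f, a marker of the resident liver macrophages (Kupffer cells), at 0.21 TPM in the depleted and 12.3 TPM in the other liver. The 5 of 6 Kupffer cell markers listed summed to 11.6 TPM in the depleted and 67.8 TPM in the other liver. Of the 5 general macrophage markers listed, 0 were past the fold higher and 3 lower, with a median difference of -1.27. Adgre1 had 1.44 TPM in the depleted and 4.9 TPM in the other liver, Csf1r 0.66 and 5.04 TPM, Lyz2 13.9 and 40.1 TPM and Itgam 1.69 and 2.75 TPM. Cd14 alone was higher in the depleted liver, at 540.4 TPM against 290.7 TPM, and it set the sum of the 5, which was 558.1 TPM in the depleted and 343.5 TPM in the other liver. The listed neutrophil markers summed to 51.4 TPM in the depleted and 21.8 TPM in the other liver, and the part of any of these cells in the values below was not tested. Between these livers Mt1 differed by 0.05 and Mt2 by 0.42. Of the wider lists, Slc39a1 was the other importer gene of some abundance in liver. It had 74.7 TPM (LPS) and 53.2 TPM (PBS) in TG2-KO liver, and 68.2 TPM with LPS plus CTM, 80.8 TPM with LPS and 38.8 TPM with PBS in WT liver. Slc30a5 had 15.4 TPM (LPS) and 21.8 TPM (PBS) in TG2-KO liver, against 20.3 TPM (LPS) and 9.24 TPM (PBS) in WT liver.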

How the data were processed

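Strand-specific mRNA libraries were quantified by the authors with Salmon on mm10 (GRCm38), per the submitters' processing notes, which give no version. What the authors deposited are TPM for each gene symbol, scaled within each library. They hold no counts, so depth, and the precision it gives, are unknown. TPM sum to 993386.5 to 999190.5 per cell line library and, for the listed part of liver, to 153179.8 to 336332.5. Groups follow the labels. Libraries with LPS or CTM at 24 h have numbers that differ between values and labels, and were placed by group alone.

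log2(TPM + 1) was fitted in limma 3.58.1 (R 4.3.3) with a mean-variance trend, all groups of an experiment in 1 model and no replicate block, over genes averaging 1 TPM or more. P-values were adjusted by Benjamini-Hochberg across every gene tested (threshold 0.05), and the model was tested on simulated data. Liver differences have no test. Promoters are RefSeq sequences (GRCm38.p6), where 5 of the 6 genes matched, and positions are from a GRCm38 annotation (GENCODE) that may differ from the authors'. Alternatives tried were dropping the filter or raising it to 5 TPM, a pseudocount of 0.1, median-of-ratios scaling, fitting only the groups of a contrast, the replicate block (12 h), Mt1 and Mt2 summed, and each library left out. The members and lists were chosen with earlier results of these data known. Named are the 6 members, Vim and Tgm2, the 3 genes of most similar pattern, and of each list some of the up to 4 genes with the largest change past the threshold. Depletion without LPS was not analysed here. Python 3.11.15, numpy 2.4.6, pandas 2.3.3 and matplotlib 3.10.9 were used for tables and figures.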

Additional observations from a re-analysis of the deposited data

Results flagged for a closer look

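The LPS response of 4 of the 6 genes at 12 h differed between the genotypes by the interaction term of limma, over 2 libraries per group. As the change in Vim-KO cells minus that in WT cells on the log2 scale, the difference was -2.026 for Mt2 (adjusted p = 0.00013) and -1.628 for Mt1 (adjusted p = 0.000255). For Slc39a14 it was -0.869 (adjusted p = 0.0112), and for Slc39a10 -0.59 (adjusted p = 0.02). Those of Mt2, Mt1 and Slc39a14 kept their call when each library was left out in turn, and that of Slc39a10 was lost without any of 4 libraries.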

How the results depend on the processing

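With no filter on low genes, LPS plus CTM against LPS called 1 of the 6 genes in place of 2. Summing Mt1 and Mt2 as 1 feature turned the Mt1 changes at 24 h to 0.43 for LPS against PBS, -0.25 for LPS plus CTM against LPS and 0.18 for LPS plus CTM against PBS, and ended the Mt2 calls in Vim-KO cells with LPS against PBS (0.23) and in Vim-KO against WT with PBS (-0.25). Scaling turned the LPS change of Slc30a1 in WT cells at 12 h to 0.044. With a minimum difference of 2 in liver, 9 listed genes were past the fold for LPS plus CTM against LPS, 73 for depletion, 430 for LPS in TG2-KO liver, 939 for LPS in WT liver, 46 for TG2-KO against WT with PBS and 28 with LPS. Over the genes listed, scaling left the LPS difference of Slc30a1 at -0.54 in TG2-KO liver and -0.13 in WT liver, while Mt2 in WT liver stood at 7.59. The listed genes all differ with LPS in WT liver, so this scaling cannot decide these differences. With a pseudocount of 0.1, Slc39a10, at low TPM, moved to -1.73 for depletion.

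Leaving out 1 library gave 1153 to 2362 genes called for LPS plus CTM against LPS (2823 with all). It gave 1794 without the LPS library numbered 3, and 1552 and 1153 without the CTM libraries numbered 2 and 3. Vim-KO against WT with PBS gave 3186 to 5343 (4782 with all; 3186 without the first WT library with PBS). The interaction gave 1203 to 2656 (2292 with all), with 1439 and 1256 without the first and second Vim-KO library with PBS, 1441 without the first WT library with LPS, and 1203 and 1252 without the first and second WT library with PBS. Of the 6 genes, 0 to 2 were called for LPS plus CTM against LPS (0 without the CTM library numbered 2, 1 without the LPS library numbered 2) and 2 to 4 for Vim-KO against WT with PBS (2 without the second Vim-KO library with PBS). At 12 h, differences between the 2 libraries of a group correlated across genes at -0.219 to 0.0982 between groups. The sign of such an r depends on which library is numbered first. It therefore cannot decide whether libraries of different groups shared their handling. Whether samples with the same number were handled as pairs is not in the labels. With the replicate block, 7677 genes were called for LPS in WT cells, 7169 in Vim-KO cells, 4393 for Vim-KO against WT with PBS, 4603 with LPS and 1835 for the interaction, with 6, 5, 4, 3 and 4 of the 6 genes. No paired analysis was possible at 24 h because the numbers of the LPS and CTM libraries do not match the labels. The fit on the groups of the contrast alone was not run for the interaction, which uses all 4 groups.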
